A study of Mus musculus with 6 samples.

Results

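The IL-6, IL-12 and related cytokine genes Il6, Lif, Il12a, Il12b, Il23a, Il15 and Il10 were followed in RAW 264.7 cells, a mouse macrophage-like line, treated with bacterial lipopolysaccharide (LPS). Members were chosen by name, as the probes whose platform annotation gives exactly 1 gene symbol and that symbol one of the 7. This found 11 of the 13738 probes that name 1 symbol, and all 7 genes of 10698. The labels of each of the 6 samples name the line 264.7 in 7 places and 264.4 in 1. Treated cells had received LPS at 100 ng/ml together with LPS-binding protein at 100 pM for 16 hours, and untreated cells were cultured for 16 hours. All values are log2 ratios of treated over untreated cells measured on 6 dual-colour arrays, 3 with the treated RNA in Cy5 and 3 with it in Cy3, each orientation holding sets 1, 2 and 3. The table does not state the direction of its ratios. It was taken as Cy5 over Cy3, the likely one since on all 6 arrays the test RNA of the labels is that in Cy5, and with the opposite direction every sign and every order given here would turn round. LPS and its binding protein were given together, so the action of either alone cannot be told apart, and nothing in the labels says that the sets were separate cultures, so the p-values measure a spread that may be technical.

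These cytokines carry signals from an activated macrophage to other cells. IL-6 and leukaemia inhibitory factor (Lif) act through receptors that share the signalling chain gp130, encoded by Il6st, and chiefly activate STAT3. IL-12 is a dimer of p35 (Il12a) and p40 (Il12b), and IL-23 is a dimer of p19 (Il23a) and the same p40, so either cytokine needs both of its subunits. IL-15 sustains natural killer and memory T cells and is shown to them bound to its own receptor chain, Il15ra. IL-10 restrains macrophage activation through STAT3. In macrophages LPS is sensed by Toll-like receptor 4, which activates NF-kappaB and interferon regulatory factors.

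After 16 hours, Il6, Il10, Il15 and Lif were higher in treated cells, and none of the members was called lower. Il6 stood at 34.4-fold, while Il10, Il15 and Lif stood between 2.31-fold and 2.57-fold. The subunits Il12a and Il23a did not pass the test, nor did Il12b in the fit that allowed a missing ratio, and the means of all 3 lay between 1.05-fold and 1.11-fold. Of the 6 members with a ratio on all 6 arrays, 4 were called up at an adjusted p under 0.05 in limma, whereas 16.8% of all 9607 genes tested were called up and 14.6% down. By probe, 5 of the 9 complete member probes were called up, against 16.9% of 13418 probes. The incomplete member probes, that of Il12b and probe B of Lif, are not in these counts and were not called in the fit that allowed a missing ratio. Members were chosen with earlier results of these data known, so these shares are no independent test. The ratios give no absolute level, so they do not show how much of any of these RNAs a cell held. In such bulk samples, a changed number of cells holding an RNA and a changed amount per cell cannot be told apart.

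**Figure D1:**
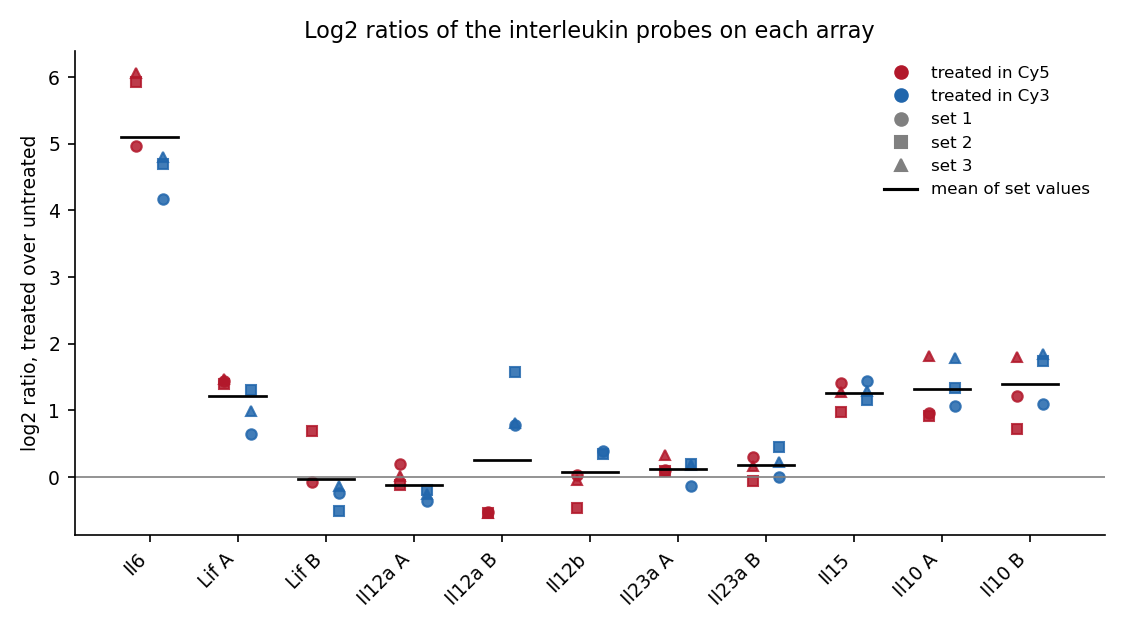
Log2 ratio of treated over untreated cells (vertical axis) for each of the 11 interleukin probes (horizontal axis), with 1 point per array, coloured by the dye of the treated RNA and shaped by set; the black bar is the mean of the set values. Il6 lies above 4 on every array, Il15, Il10 and 1 Lif probe lie above 0.6, and 1 Il12a probe lies below 0 with treated RNA in Cy5 and above 0 with it in Cy3.

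The Il6 gene is carried by 1 probe. With treated RNA in Cy5 its log2 ratios were 4.97, 5.93 and 6.06 in sets 1, 2 and 3, and with treated RNA in Cy3 they were 4.18, 4.70 and 4.80. Every array thus showed Il6 far above the untreated level, and set 1 gave the lowest ratio in both orientations. The mean over sets was log2 5.11 ± 0.47 (SD, n = 3, adjusted p = 3.38e-06 in limma), with a 95% confidence interval of 26.4-fold to 44.9-fold. No other of the 9607 genes had a higher mean ratio. The highest ratio in the whole table was log2 6.64, which is 100-fold and looks like a limit, and no Il6 array stood there.

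The bases before the annotated starts of Il6 and Lif, which rose, and of Il12b, which did not pass the test, are shown so that the LPS-responsive elements of these promoters can be read beside the ratios. They are the 250 bases before the RefSeq start in GRCm38.p6, on the plus strand, at chr5:30012864-30013113 for Il6, chr11:4257318-4257567 for Lif and chr11:44399813-44400062 for Il12b. Capitals mark letters that match, on either strand, one of 5 patterns, namely GGG, any 5 bases and CC for NF-kappaB, TTGCNNAA for C/EBP, TGANTCA for AP-1, GAAA, any 2 bases and GAAA for the interferon-stimulated response element, and TTCNNNGAA for STAT factors.
Il6: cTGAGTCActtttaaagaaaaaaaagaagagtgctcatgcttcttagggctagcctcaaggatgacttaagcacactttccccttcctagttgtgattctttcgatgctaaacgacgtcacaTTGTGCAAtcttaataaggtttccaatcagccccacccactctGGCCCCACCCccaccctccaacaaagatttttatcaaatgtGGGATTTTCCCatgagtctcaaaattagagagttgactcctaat
Lif: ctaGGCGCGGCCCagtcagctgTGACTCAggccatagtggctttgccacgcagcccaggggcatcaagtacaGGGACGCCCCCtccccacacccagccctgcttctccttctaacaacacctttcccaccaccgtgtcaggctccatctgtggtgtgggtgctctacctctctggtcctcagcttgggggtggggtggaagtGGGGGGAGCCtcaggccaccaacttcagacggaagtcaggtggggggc
Il12b: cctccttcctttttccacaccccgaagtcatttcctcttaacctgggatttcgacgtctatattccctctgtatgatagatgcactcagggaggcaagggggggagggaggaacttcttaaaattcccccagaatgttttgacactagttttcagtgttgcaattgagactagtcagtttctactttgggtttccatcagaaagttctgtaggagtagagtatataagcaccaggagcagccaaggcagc

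The Il6 window holds GGGATTTTCC, which lies at the known NF-kappaB site of this gene, from 44 to 35 bases before the start, overlapping a match of the same pattern on the other strand. A separate match of this pattern, GGCCCCACCC on the other strand, lies from 85 to 76 bases before the start, and 0.700% of all windows hold its exact letters. It also holds TTGTGCAA, a C/EBP match, from 128 to 121 bases before the start, and TGAGTCA, an AP-1 match, from 249 to 243. The Lif window holds 4 matches of the NF-kappaB pattern, a pair of which overlap on opposite strands, and the AP-1 match TGACTCA. The Il12b window matches none of the 5 patterns, which says only that these letters are not in this window. Among 32841 promoter windows of the same length, 45.8% hold the loose NF-kappaB pattern, 9.57% the C/EBP pattern, 6.75% the AP-1 pattern, 2.98% the interferon pattern and 7.02% the STAT pattern, whereas 0.0639% hold those exact 10 letters of the Il6 site on either strand. RefSeq windows were found for 4 of the 7 members. The window of a second Il12a start holds 2 overlapping NF-kappaB matches on opposite strands, and that of its first start holds none of the patterns.

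Lif, a gp130 cytokine known for keeping embryonic stem cells undifferentiated, is carried by 2 probes that gave different values. Probe A stood at 1.45, 1.40 and 1.48 with treated RNA in Cy5 and at 0.64, 1.31 and 0.99 with it in Cy3. It was above 0 on all 6 arrays, with a mean of log2 1.21 ± 0.15 (SD, n = 3, adjusted p = 9.42e-05 as the gene's value in limma). Probe B had no ratio on 1 array and stood at -0.07 and 0.69 with treated RNA in Cy5 in sets 1 and 2 and at -0.24, -0.50 and -0.14 with it in Cy3. Over its 2 complete sets its mean was log2 -0.03 ± 0.17 (adjusted p = 0.898 in limma), so the rise of Lif rests on probe A alone. The annotation ties both probes to the same transcript record. Where both probes were averaged over the complete sets, Lif came to log2 0.59 (adjusted p = 0.00985 in limma).

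The 3 subunit genes of IL-12 and IL-23 stayed near the untreated level on average. Il23a, which encodes p19, had ratios of 0.11, 0.10 and 0.33 at probe A and 0.30, -0.06 and 0.17 at probe B with treated RNA in Cy5, and of -0.14, 0.19 and 0.18 at probe A and 0.00, 0.45 and 0.23 at probe B with it in Cy3. Its 2 probes lay close together, and the gene's mean was log2 0.15 ± 0.08 (SD, n = 3, adjusted p = 0.163 in limma), with a 95% confidence interval of 0.988-fold to 1.25-fold.

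Il12b, which encodes the shared p40, had no ratio on 1 array. Its ratios were 0.04, -0.46 and -0.04 with treated RNA in Cy5 and 0.39 and 0.35 with it in Cy3 in sets 1 and 2. Both Cy3 values lay above all 3 Cy5 values. The mean over the 2 complete sets was log2 0.08 ± 0.19 (adjusted p = 0.665 in limma, 95% confidence interval 0.882-fold to 1.27-fold). In the fit over all 14541 probes with at least 2 complete sets, 28.9% were called in either direction, and neither Il12b nor Lif probe B was among them.

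Il12a, which encodes p35, averaged log2 0.07 ± 0.10 (SD, n = 3, adjusted p = 0.544 in limma, 95% confidence interval 0.930-fold to 1.19-fold), but its 2 probes and the 2 dye orientations differed. The SD and interval were taken after both probes and both orientations were averaged, so they leave these differences out. With the arrays as samples and no replicate block, the adjusted p of Il12a was 0.762 in limma. Probe A stood at 0.20, -0.12 and 0.01 with treated RNA in Cy5 and at -0.36, -0.19 and -0.25 with it in Cy3. Probe B stood at -0.52, -0.54 and -0.53 with treated RNA in Cy5 and at 0.78, 1.57 and 0.81 with it in Cy3. All 3 Cy5 values of probe B were thus below 0 and all 3 Cy3 values above it, with no overlap. Its orientations differed by log2 -1.58 (Cy5 minus Cy3, adjusted p = 0.0269 for the dye term in limma), a term that was called for 0.335% of the 13418 probes. Fitted alone, the Cy5 arrays of Il12a probe B gave log2 -0.53 (adjusted p = 0.0117 in limma) and its Cy3 arrays log2 1.05 (adjusted p = 0.00216 in limma), so each orientation by itself passed the test in the opposite direction. Averaged over both, Il12a probe B came to log2 0.26 ± 0.22 (adjusted p = 0.0930 in limma).

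**Figure D2:**
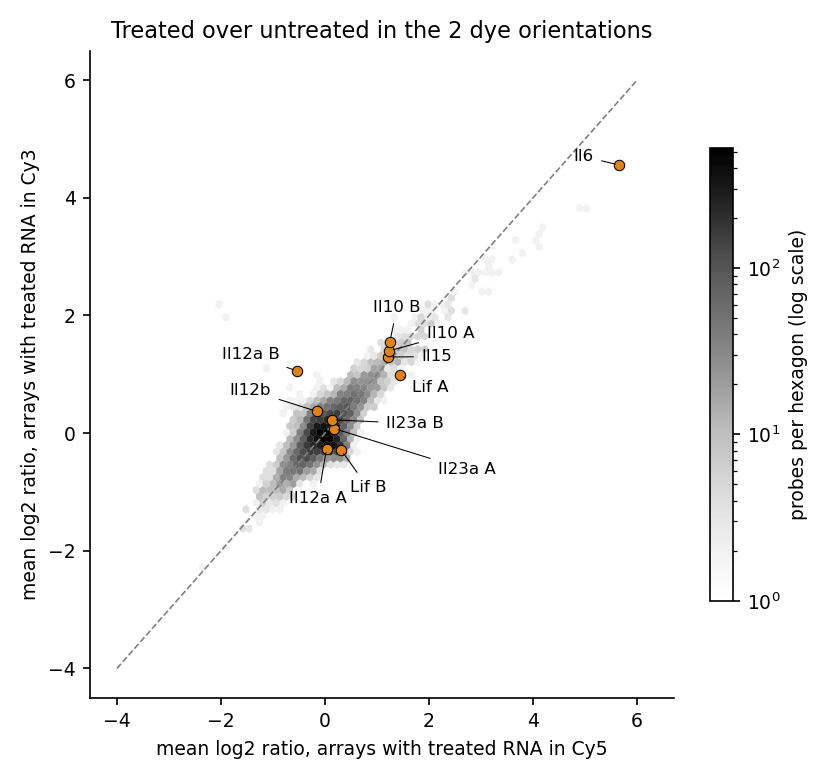
Mean log2 ratio of treated over untreated cells by dye orientation, Cy5-treated arrays on the horizontal axis and Cy3-treated arrays on the vertical axis, with the interleukin probes (all their ratios) as orange points over grey hexagons that count all probes with a ratio on all 6 arrays; the dashed line marks equal values. Il12a probe B lies far above the line at -0.53 and 1.05, Il6 lies below it at 5.65 and 4.56, and Il15 lies close to it at 1.22 and 1.29.

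No member gene had a dye term past the threshold, which 0.364% of all genes had. For Il6 the Cy5 arrays averaged log2 5.65 and the Cy3 arrays 4.56, with the 3 Cy5 values all above the 3 Cy3 values, but the dye term had an adjusted p of 0.164 in limma. Il15 and Il23a differed least between orientations, by log2 -0.07 at the Il15 probe and by 0.10 and -0.09 at the Il23a probes.

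Il15 is carried by 1 probe. Its log2 ratios were 1.41, 0.97 and 1.28 with treated RNA in Cy5 and 1.44, 1.16 and 1.29 with it in Cy3. All 6 arrays lay within log2 0.97 to 1.44 and the orientations overlapped, and the mean was log2 1.26 ± 0.18 (SD, n = 3), or 2.39-fold (adjusted p = 0.000101 in limma). Il15ra, the receptor chain that presents IL-15, was higher as well, at 2.82-fold (adjusted p = 0.000164 in limma, 95% confidence interval log2 1.22 to 1.78), with array values from 1.09 to 1.97.

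Il10 is carried by 2 probes that gave nearly the same values. Probe A stood at 0.97, 0.92 and 1.82 with treated RNA in Cy5 and at 1.06, 1.34 and 1.79 with it in Cy3, and probe B at 1.22, 0.72 and 1.81 and at 1.09, 1.74 and 1.84. Set 3 gave the highest ratio at both probes in both orientations. The gene's set values were 1.08, 1.18 and 1.82 in sets 1, 2 and 3, with a mean of log2 1.36 ± 0.40 (SD, n = 3), or 2.57-fold (adjusted p = 0.000588 in limma). Without set 3 the mean of Il10 was log2 1.13 (adjusted p = 1.31e-07 in limma). Without set 1 the adjusted p of Il10 was 0.00192, and without set 2 it was 0.00309, both in limma. The fit without set 3 also gave far smaller adjusted p-values for Il6 (3.30e-14), Lif (1.31e-07) and Il15 (1.04e-07) in limma. The low value for Il10 in that fit was therefore not read as stronger evidence.

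Ordered by mean ratio, Il6 led, followed by Il10, Il15, Lif, Il23a, Il12b and Il12a. Lif entered this order, its differences and its rank by probe A alone. With both its probes averaged over the complete sets, Lif came to log2 0.59, below Il10 and Il15. The set values of Il6 lay above those of Il10 by log2 3.75 ± 0.34 (SD of the set differences, n = 3), and those of Lif lay above those of Il23a by 1.06 ± 0.11. The neighbours Il10 and Il15 differed by 0.10 ± 0.44 and Il15 and Lif by 0.05 ± 0.33, so these 3 could not be ordered beyond their spread. Il23a, Il12b and Il12a overlapped in the same way, each pair of neighbours differing by less than log2 0.08 in the mean. Among the 9607 genes, Il10 ranked at 225, Il15 at 261 and Lif at 274 from the highest ratio, while Il23a ranked at 2333 and Il12a at 3258. With the opposite direction of the table, Il6 would have the lowest ratio, at rank 9607, Il10 would rank at 9383, Il15 at 9347 and Lif at 9334.

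Of 11 measured receptor genes, 2 were called up and 1 down, with a median log2 ratio of 0.06, against -0.01 over all genes tested. The share of receptors called up, 18.2%, lay close to the 16.8% of all genes, and 1 of 11 down stands beside 14.6% of all genes. Il10rb, the shared second chain of the IL-10 receptor, was 1.36-fold higher (log2 0.44 ± 0.18, adjusted p = 0.00925 in limma), and without set 1 Il10rb came to log2 0.34 (adjusted p = 0.0544 in limma). Il6ra, the ligand-binding chain for IL-6, fell to 0.724 of the untreated level (log2 -0.47 ± 0.15, adjusted p = 0.00553 in limma), and its ratios were below 0 on all 6 arrays. With treated RNA in Cy5 only, Il6ra came to -0.34 (adjusted p = 0.0644 in limma) and Il10rb to 0.38 (adjusted p = 0.0641 in limma). The 3 probes of Il6ra stood at -0.64, -0.54 and -0.22. Il6st, the gp130 chain, was at log2 0.14 (adjusted p = 0.286), Lifr at 0.07 (0.534) and Il10ra, the ligand-binding chain for IL-10, at 0.04 (0.819), all by limma. The IL-12 receptor chains Il12rb1 and Il12rb2 stood at 0.06 and 0.02, Il2rb, a chain of the IL-15 receptor, at 0.11, Osmr at -0.13 and Il27ra at -0.18, and none of these passed.

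**Figure D3:**
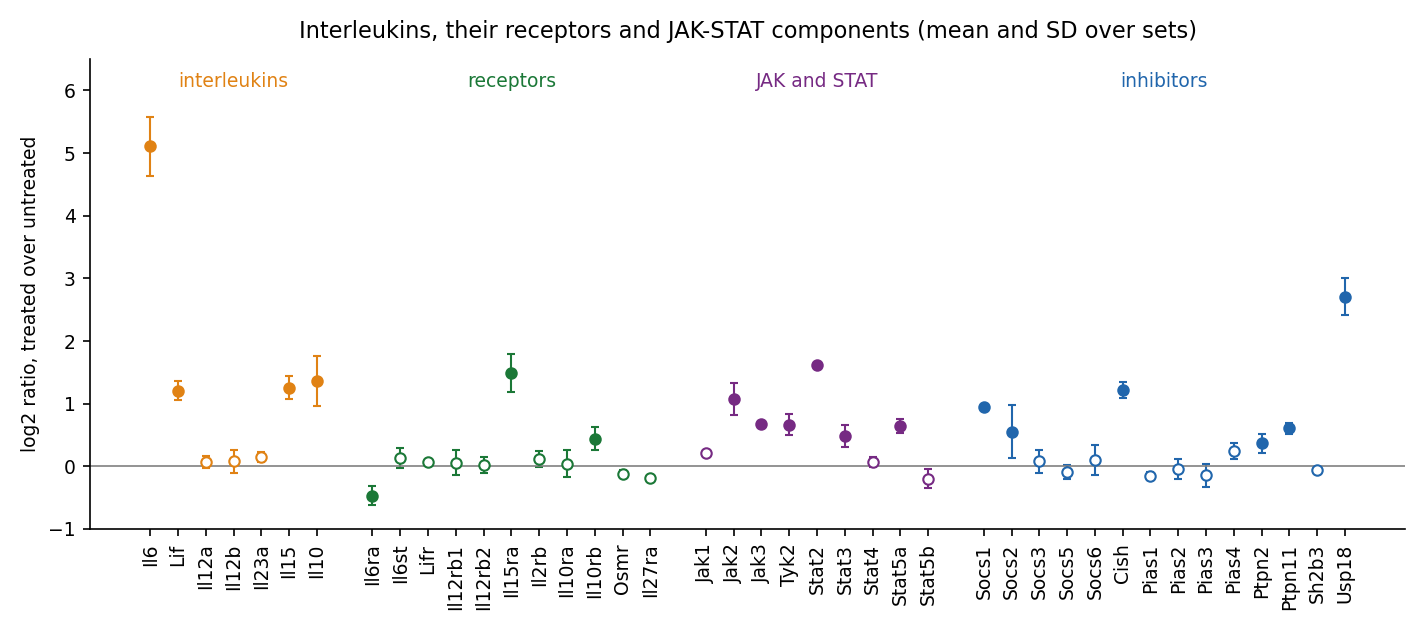
Log2 ratio of treated over untreated cells (vertical axis) for the 7 interleukin genes and the measured genes of their receptors, JAK and STAT proteins and JAK-STAT inhibitors (horizontal axis); points are means and bars the SD over 3 sets (2 sets for Il12b), and filled points passed an adjusted p of 0.05. Il6 stands at 5.11, Il6ra is the 1 filled point below 0, at -0.47, and 6 of 9 JAK and STAT genes and 6 of 14 inhibitors are filled above 0. Of all genes tested, 16.8% were called up.

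The kinases and transcription factors that carry these signals were called up in 6 of 9 measured cases and down in 0, with a median of log2 0.64. The share up, 66.7%, stands beside 16.8% of all genes tested, of which 14.6% were called down. Like the other lists, this one was chosen with earlier results of these data known, so its share is no independent test. Stat2, which works in interferon signalling, was 3.05-fold higher (log2 1.61 ± 0.02, adjusted p = 1.16e-05 in limma), and Jak2, a kinase bound to gp130 and to the IL-12 receptor, was 2.10-fold higher (log2 1.07 ± 0.26). Jak3, a kinase of the IL-15 receptor, stood at log2 0.68, Tyk2, a kinase of the IL-12 and IL-10 receptors, at 0.67, and Stat5a at 0.64. Stat3, the main factor downstream of IL-6 and IL-10, was 1.40-fold higher (log2 0.48 ± 0.18, adjusted p = 0.00621 in limma), and its 2 probes stood at 0.48 each. Stat4, the main factor of IL-12 signalling in lymphocytes, was at 0.07 (adjusted p = 0.533), Jak1 at 0.21 (0.0554) and Stat5b at -0.20 (0.122), by limma. Jak1 was called in the 6-array fits with no replicate block (adjusted p = 0.0157), with the set as a random block (0.0158) and in the model with treatment and dye (0.0132).

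Inhibitors of JAK-STAT signalling were called up in 6 of 14 measured cases and down in 0, with a median of log2 0.17. The share up, 42.9%, stands beside 16.8% of all genes tested, of which 14.6% were called down. Usp18, an interferon-induced brake on interferon receptors, was 6.54-fold higher (log2 2.71 ± 0.30), Cish 2.32-fold (1.21 ± 0.12) and Socs1 1.93-fold (0.95 ± 0.01), with adjusted p-values of 1.21e-05, 7.21e-05 and 0.000114 in limma. The probes of Cish stood at 1.55 and 0.88. Ptpn11 (0.61), Socs2 (0.55) and Ptpn2 (0.37) were called as well. With treated RNA in Cy5 only, Socs2 came to 0.55 (adjusted p = 0.0704 in limma) and Ptpn2 to 0.27 (adjusted p = 0.140 in limma), and with robust moderation the adjusted p of Socs2 was 0.0501. The 3 probes of Ptpn11 stood at 0.80, 0.18 and 0.84. The Socs2 ratio of set 3 was 1.04, while those of sets 1 and 2 were 0.30 and 0.32. Socs3, the inhibitor that STAT3 induces and that shuts off gp130 signalling, was at log2 0.08 ± 0.19 (adjusted p = 0.589 in limma), and its array values ran from -0.38 to 0.70.

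Genes known to respond to STAT3, the factor that IL-6 and IL-10 activate, were called up in 14 of 18 measured cases and down in 0, with a median of 2.08-fold. The share up, 77.8%, stands beside 16.8% of all genes tested, of which 14.6% were called down. This list too was chosen with earlier results of these data known, so its share does not test STAT3 activity. Saa3, an acute-phase gene, stood at log2 4.57 ± 0.31, Il1rn, the IL-1 receptor antagonist, at 4.36 ± 0.51, and Myc, a growth-promoting transcription factor, at 3.47 ± 0.46. Bcl3, an atypical IkappaB protein induced by IL-10, was 6.68-fold higher (2.74 ± 0.03, adjusted p = 1.66e-06 in limma), and Pim1, a kinase induced by cytokine receptors, 4.60-fold (2.20 ± 0.23). The IL-4 receptor chain Il4ra, induced by IL-10 in macrophages, was 2.13-fold higher (1.09 ± 0.19). Besides Socs3, the genes Lbp (0.04), Mcl1 (0.04) and the scavenger receptor Cd163 (-0.11) did not pass. Many of these genes also respond to NF-kappaB or interferon, and signalling by the cytokines themselves was not measured.

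Transcription factors known to act on these cytokine genes were called up in 17 of 24 measured cases and down in 1, with a median of log2 0.52. The share up, 70.8%, stands beside 16.8% of all genes tested, of which 14.6% were called down, on a list chosen with earlier results known. Irf7, an interferon regulatory factor, rose 5.50-fold (log2 2.46 ± 0.14), Batf, an AP-1 family member, 4.77-fold (2.26 ± 0.14), and Cebpd, which acts on Il6, 3.80-fold (1.93 ± 0.17). Nfkbiz, an IkappaB family protein needed for Il6 induction, rose 3.53-fold (1.82 ± 0.17, adjusted p = 1.68e-05 in limma), with its 2 probes at 1.32 and 2.33. Atf3, a repressor of Il6 and Il12b in mouse macrophages, also rose 3.53-fold (1.82 ± 0.31, adjusted p = 7.89e-05 in limma). Rel, the NF-kappaB subunit that Il12b and Il23a depend on in macrophages, was 1.52-fold higher (0.61 ± 0.19), and Irf8 was 1.44-fold higher (0.52 ± 0.09), while Rela stood at -0.12. Bhlhe40, a repressor of Il10 in mouse myeloid and T cells, was lower in treated cells (adjusted p = 0.000878 in limma), with a 95% confidence interval of log2 -1.27 to -0.73 and array values from -1.33 to -0.63.

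Of 14 genes listed as acting on cytokine RNA stability, 5 were measured, of which 2 were called up and 1 down. Over all genes tested, 16.8% were called up and 14.6% down. Zfp36, which destabilises cytokine RNA, was 7.03-fold higher (log2 2.81 ± 0.24, adjusted p = 5.69e-06 in limma). Its relative Zfp36l1 was at 0.35 with probes at 0.82 and -0.12, and Zfp36l1 came to 0.26 without set 1 (adjusted p = 0.125 in limma) and to 0.37 with treated RNA in Cy5 only (0.120). Zfp36l2 was lower at -0.37 (adjusted p = 0.0130 in limma), and Zfp36l2 came to -0.35 without set 2 (adjusted p = 0.0611 in limma) and to -0.25 with treated RNA in Cy5 only (0.139).

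Other ligands of the same families were sparsely measured. Il11, a gp130 cytokine, was 1.89-fold higher (log2 0.91 ± 0.31, adjusted p = 0.00148 in limma) by the 1 of its 2 probes with all ratios, while Ctf1 (0.02) and Clcf1 (0.07) did not pass. Ebi3, which pairs with p28 to form IL-27 and with p35 to form IL-35, had ratios on 4 arrays, namely 1.34 and 1.95 with treated RNA in Cy5 and 1.49 and 1.40 with it in Cy3. All of them were above 1.3, and a model with treatment and dye on these 4 arrays gave Ebi3 log2 1.55 (SE 0.11, adjusted p = 0.000139 in limma). Of 6 measured IL-10 relatives and common gamma chain cytokines, 0 were called up and Il2 was called down at log2 -0.28 ± 0.16 (adjusted p = 0.0438 in limma). Over all genes tested, 16.8% were called up and 14.6% down. Il2 came to -0.30 without set 1 (adjusted p = 0.128) and to -0.19 without set 3 (0.179). It came to -0.11 with at least 2 complete sets (0.565), -0.16 in the model with treatment and dye (0.255) and -0.17 with exact zeros kept (0.236), and it was not called in either orientation alone.

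The genes whose ratios lay closest to each member were found as those with the smallest root mean square difference over the 6 arrays, among 9601 other genes. For Il6 these were the chemokine gene Ccl2 (difference 0.52), Urah (0.62) and Saa3 (0.70). For Il10 they were Ptger2, a prostaglandin E2 receptor (0.07), Mdm4 (0.20) and Lum (0.21). For Il15 they were Herpud1 (0.11), the JAK-STAT inhibitor Cish (0.12) and Shisa5 (0.13), and for Lif they were Necap1 (0.20), Tapbp (0.22) and Klf6 (0.23). For Il23a they were Nmnat3 (0.04), Rps25 (0.06) and Cep83 (0.07), and for Il12a they were Prdx2 (0.10), Rpl38 (0.10) and Rpl36 (0.11). Il12b, with a missing ratio, was not compared. These are likenesses of ratio over 6 arrays that share 1 comparison.

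After turning, arrays of opposite orientation correlated at 0.622 to 0.852 over 13418 probes, which are not independent. Arrays of the same orientation correlated at 0.771 to 0.839, and the cause of the wider range between orientations was not tested. Of 11 macrophage markers, 9 had a ratio on all arrays, of which 5 were called up and 1 down. Msr1 stood at 2.35, Fcgr1 at 2.13, Adgre1 at 1.79, Lyz2 at 0.95, Cd68 at 0.34 and Csf1r at -0.27. Of 21 markers of other cell types, 19 had a ratio on all arrays and 3 were called up (Cd4, Cd79a and Pecam1, at 0.31 to 0.39). The shares up were 55.6% and 15.8%, against 16.8% of all genes tested, of which 14.6% were called down. Ratios cannot show whether a marker is absent, so the cell type was not tested.

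Across 13 other ways of processing the ratios, Il6, Il10 and Il15 kept their calls, with Il6 between log2 4.56 and 5.65, Il10 at its lowest at 1.13 and Il15 between 1.17 and 1.35. Il23a lay between 0.12 and 0.20 and was not called. Il12b could be fitted under 2 alternatives only, at 0.05 with exact zeros kept and 0.11 in the model with treatment and dye, and was called in neither.

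**Figure D4:**
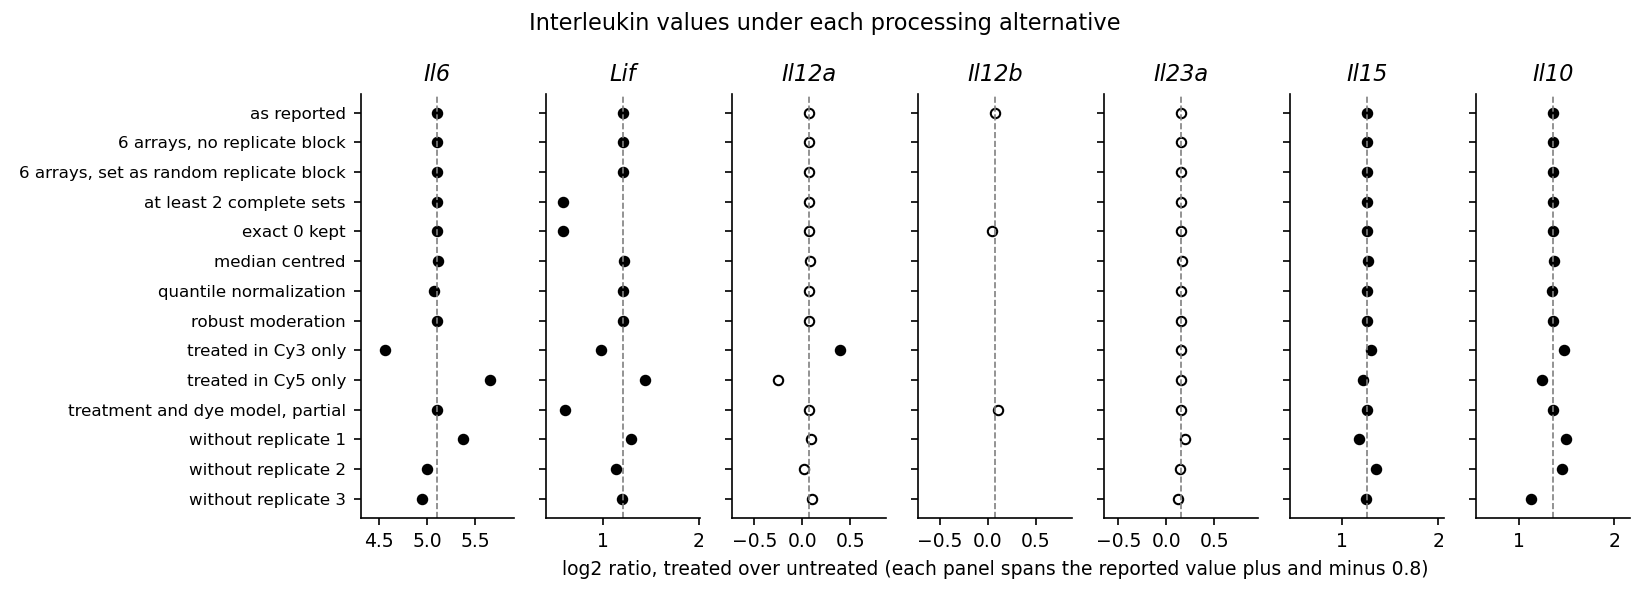
Log2 ratio of treated over untreated cells (horizontal axis, a panel per gene) as reported and under 13 processing alternatives, or 2 for Il12b (vertical axis), with filled points past an adjusted p of 0.05 and the dashed line at the reported value. Il6, Il10, Il15 and Lif are filled throughout, Lif drops to about 0.59 where both its probes enter, and Il12a is filled only with treated RNA in Cy3, at 0.39.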

How the data were processed

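The values used are log2 ratios of both channels of each of the 6 arrays, as deposited by the authors. How the authors corrected background and normalized is not given in the sources used. The direction was taken as Cy5 over Cy3, and arrays with treated RNA in Cy3 were turned. Exact zeros, 9.56% to 12.9% of an array, were read as missing. Of 16281 probes, the 13418 complete on 6 arrays entered the main fit, and averaging the probes of a gene gave 9607 genes.

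Both orientations of a set were averaged, and the 3 set values set against 0 by two-sided tests in limma 3.58.1 (lmFit and eBayes, R 4.3.3), with p-values adjusted by Benjamini-Hochberg over all genes or probes and called under 0.05. A second fit took probes with at least 2 complete sets, and a model with treatment and dye used all available ratios. The main fit and the treatment and dye model were tested on simulated data with independent arrays and no missing ratios. The simulation did not cover incomplete probes or RNA shared within a set. Members, lists and motifs were chosen with earlier results of these data known. Named genes are the members, their receptors, the 3 called genes of each list with the largest rise and the 3 with the largest fall, and the 3 nearest genes of each member measured on all arrays; other list genes were named for their role after their values were seen. Figures used Python 3.11.15. The number of arrays limits the precision.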

Additional observations from a re-analysis of the deposited data

Results flagged for a closer look

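Il12a probe B differed between the dye orientations by log2 -1.58 (Cy5 minus Cy3, adjusted p = 0.0269 for the dye term in limma), with the 3 Cy5 arrays below 0 and the 3 Cy3 arrays above 0. Over both its probes, Il12a differed by -0.64, and its 3 Cy5 values were negative and its 3 Cy3 values positive, but the dye term did not pass (adjusted p = 0.142 in limma). Socs3 showed the same opposite signs with a difference of -0.69 (adjusted p = 0.142 in limma).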

How the results depend on the processing

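Over 13 alternatives the number of members called up stayed at 4, except with treated RNA in Cy3 only, where it was 5, and the number called down stayed at 0. Without one set in turn, Il6 ranged from log2 4.94 to 5.37 and Il10 from 1.13 to 1.5. Of 85 distinct pathway genes measured, 44 were called up and 4 down, and 37 to 47 up over the alternatives. Over all genes tested, 16.8% were called up and 14.6% down, and the lists were chosen with earlier results of these data known. With treated RNA in Cy5 only, 1 member probe (Il12a probe B) was called down instead of 0, and 2 pathway genes instead of 4; the cause was not tested. Signs turned with treated RNA in Cy5 only for Il12a (-0.25), Il12a probe A (0.031), Il12a probe B (-0.53), Socs3 (-0.27) and Il6st (-0.0026), and with treated RNA in Cy3 only for Il12rb2 (-0.043), Stat4 (-0.037) and Stat5b (0.0012). They also turned for Il12a by probe A alone (-0.12), Lif by probe B alone (-0.028), Lif probe B in the treatment and dye model (0.011) and Il2rb with exact zeros kept (-0.038). Without one set in turn, Il10ra ranged from -0.078 to 0.135, Il12rb1 from -0.014 to 0.171 and Il12rb2 from -0.044 to 0.084. None of these reversals passed the threshold both as reported and in the alternative. Il12a probe B was not called as reported. In limma it passed with treated RNA in Cy5 only at -0.53 (adjusted p = 0.0117) and in Cy3 only at 1.05 (adjusted p = 0.00216).

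All 6 arrays were also fitted as samples with the set number as a replicate block. Il6 stayed at 5.11 and 4 members were called up, as with no replicate block. The consensus correlation was 0.0031. That fit had no dye term, so dye differences lay within each set, and the value cannot show whether same-numbered arrays are independent. Deviations of same-numbered arrays correlated at 0.219, 0.0789 and 0.570 in sets 1, 2 and 3. Cy5 set 2 correlated better with Cy3 set 1 (0.208), so for sets 1 and 2 the numbers are not shown to pair the samples. Arrays of set 3 correlated with those of the other sets at -0.399 to -0.223, so both arrays of set 3 deviated together. Whether same-numbered arrays share RNA was not tested. Il12b was run under 2 alternatives; without one set, 1 complete set would remain.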
